A study of Mus musculus with 39 samples.

Results

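Most early replicating sequence of mouse embryonic stem (ES) cells is tightly wrapped around histones, and the segments described here are the exception: they lie in loosely wrapped domains and yet in early replicating domains. The segments were chosen by the sign of 2 measured values. Each is a contiguous stretch of at least 100 kb on an autosome where a loosely wrapped domain (LoNRD, score below 0) overlaps an early replication timing (RT) domain (log2 value above 0). There were 363 such segments among the 2375 intersections of at least 100 kb of any kind. The other kinds were 708 tight and early, 625 tight and late and 679 loose and late stretches. The scores and RT values of the segments are therefore given as a description, without a test.

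Cells were wild-type R1 mouse ES cells, grown in serum with leukemia inhibitory factor, and no group carried a further genotype or drug. The wrapping list came from 4 H3-wrapping-seq libraries of 2 experiments, in which chromatin of formaldehyde-crosslinked cells was cut with MNase and precipitated for histone H3. For RT there were 8 libraries, 4 fractions of S phase sorted after a pulse of BrdU in each of 2 experiments, and whether the list was called on both experiments together is not given in the sources used here. Each list is a single call with no column for a replicate and no read number per domain. The depth behind a domain is therefore unknown from the lists (the study's read numbers per library are not used here). The lists give no spread between experiments, and the study's separate timing tracks of each RT experiment were not used here. Differences below are set against the spread over the 19 autosomes.

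In a nucleosome DNA is wound around an octamer of histones, and where the winding is loose MNase can trim further into the wrapped DNA and leaves shorter fragments. Nucleosome wrapping domains (NRDs) are long stretches of similar wrapping, and their score is relative to the genome: positive where the balance of longer to shorter fragments is above the mean of all bins (tight, TiNRD) and negative where it is below (loose). Cells copy their genome in a fixed order during S phase. Early replicating domains are usually rich in genes and G/C bases, and late replicating domains are poor in genes and rich in A/T bases.

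The sequence of the segments stood close to that of loose and late DNA in its A/T content, while its gene density and its share of CpG-rich promoters lay between those of loose and late and of tight and early DNA, as described below. To show this at the level of bases, windows of 200 bases were taken from the second and the third longest segments and from the nearest tight and early and loose and late stretches of the same chromosome. In each case the window was the one without repeats whose A/T content was nearest to that of its stretch, so it shows the typical A/T content and nothing more. Its number of CpG pairs is that of 1 window and does not stand for its kind of sequence. Capitals mark CpG dinucleotides, the pairs that are methylated in mammals and that cluster at the starts of many housekeeping genes. Sequences are from GRCm38 (mm10), plus strand.

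The segment on chromosome 9 (chr9:3250001-4400000) had an A/T content of 61.2%, against 57.2% in the nearest tight and early stretch, 3200 kb away, and 62.4% in the loose and late stretch beside it. The first window lies in an intron of Gucy1a2 and has 4 CpG pairs, the second overlaps a coding exon of Birc3 and has 2, and the third is intergenic and has 0.
Loose and early, chr9:3674201-3674400: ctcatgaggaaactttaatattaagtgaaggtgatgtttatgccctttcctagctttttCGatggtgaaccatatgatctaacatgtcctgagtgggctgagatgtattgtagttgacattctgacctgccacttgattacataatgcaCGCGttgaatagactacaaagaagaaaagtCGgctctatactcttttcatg
Tight and early, chr9:7857401-7857600: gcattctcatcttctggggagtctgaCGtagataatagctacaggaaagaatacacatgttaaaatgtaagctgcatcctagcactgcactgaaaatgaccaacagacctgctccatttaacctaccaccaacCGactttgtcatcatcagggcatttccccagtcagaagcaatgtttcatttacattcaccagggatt
Loose and late, chr9:4939001-4939200: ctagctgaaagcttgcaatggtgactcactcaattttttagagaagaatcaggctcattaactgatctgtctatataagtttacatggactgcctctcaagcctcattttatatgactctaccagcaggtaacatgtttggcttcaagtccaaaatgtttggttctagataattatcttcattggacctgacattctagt

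The segment on chromosome 1 (chr1:52900001-54000000) had an A/T content of 59.9%, against 58.5% in the tight and early stretch beside it and 60.5% in the nearest loose and late stretch, 1500 kb away. The first window lies in an intron of Dnah7a and has 2 CpG pairs, the second lies in an intron of Inpp1 and has 0, and the third is intergenic and also has 0.
Loose and early, chr1:53443001-53443200: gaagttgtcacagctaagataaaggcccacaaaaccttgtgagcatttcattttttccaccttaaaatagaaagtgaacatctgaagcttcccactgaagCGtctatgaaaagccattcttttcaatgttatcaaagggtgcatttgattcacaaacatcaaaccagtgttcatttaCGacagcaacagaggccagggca
Tight and early, chr1:52796601-52796800: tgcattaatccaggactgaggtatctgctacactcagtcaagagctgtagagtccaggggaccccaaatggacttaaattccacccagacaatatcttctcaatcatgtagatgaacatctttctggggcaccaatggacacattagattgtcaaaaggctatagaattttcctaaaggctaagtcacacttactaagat
Loose and late, chr1:56233001-56233200: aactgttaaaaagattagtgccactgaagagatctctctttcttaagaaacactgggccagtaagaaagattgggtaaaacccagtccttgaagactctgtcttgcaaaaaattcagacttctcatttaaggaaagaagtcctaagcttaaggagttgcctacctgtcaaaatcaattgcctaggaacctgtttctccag

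The segments together measured 124.2 Mb, which was 11.1% of the length of autosomal LoNRDs and also 11.1% of the length of early RT domains. They lay in 274 of the 525 LoNRDs and in 319 of the 768 early RT domains. Their median length was 300 kb, with quartiles of 150 and 450 kb, while tight and early stretches had a median of 825 kb and loose and late stretches of 950 kb. Of the segments, 77 measured at least 500 kb and held 51.0 Mb, and 5 measured at least 1 Mb. At the threshold, 49 segments measured exactly 100 kb, and the 72 intersections that were left out measured 50 kb each, 3.60 Mb in all. Every autosome held segments, from 10 on chromosome 18 to 33 on chromosome 1, and their share of the chromosome ran from 2.94% on chromosome 4 to 7.72% on chromosome 13.

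The NRD score of the segments had a median of −0.54 (quartiles −0.79 and −0.32), and their RT value a median of 0.64 on the log2 scale (quartiles 0.41 and 0.89). Both are values of the whole domain that holds a segment. The wrapping and timing of the segment's own bases were not measured here. The values nearest to the thresholds were −0.04 for the score of a segment, against 0.01 for the first domain above 0, and 0.09 for the RT value of a segment, against −0.04 for the first domain below 0. Of the segments, 56 lay in the weakest 25% of LoNRDs (scores above −0.25) and 100 in the weakest 25% of early RT domains (values under 0.43). LoNRDs of which at least 50% was early were short and weak (82 domains, median 400 kb, median score −0.27) beside all LoNRDs (median 1100 kb, median score −0.45). Early RT domains of which at least 50% was loose numbered 159, with a median length of 500 kb and a median RT value of 0.43, against 900 kb and 0.71 over all early RT domains.

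The segments fell into groups by what lay on each side. There were 152 steps (41.9% of segments, 95% Wilson interval 36.9 to 47.0% for counting error), with tight and early sequence on one side and loose and late sequence on the other, so that the wrapping call and the timing call changed at different positions. A further 75 (20.7%) were early islands, with loose and late sequence on both sides. These shares depend on how domains are cut: steps ranged from 19.05 to 58.5% and early islands from 13.95 to 35.7% over the alternatives, and with 100 kb taken off each domain end early islands outnumbered steps (35.7 against 19.05%). Loose islands, with tight and early sequence on both sides, numbered 34. The remaining 102 lay beside sequence that 1 of the lists left without a call, or, in 3 cases, beside tight and late sequence.

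Steps were short and islands were long. Steps had a median length of 200 kb and summed to 36.1 Mb. Early islands had a median of 450 kb and summed to 38.4 Mb. Loose islands had a median of 400 kb and summed to 13.9 Mb. The shortest early island measured 350 kb and the shortest loose island 300 kb, and since no LoNRD was shorter than 300 kb and no early RT domain shorter than 301 kb, the lists could hold no islands much shorter than these. Of the 726 segment ends, 406 were set by a border of an RT domain, 313 by a border of an NRD and 7 by both at the same position. In all, 93 segments were whole early RT domains, 49 were whole LoNRDs and 221 were neither.

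**Figure D1:**
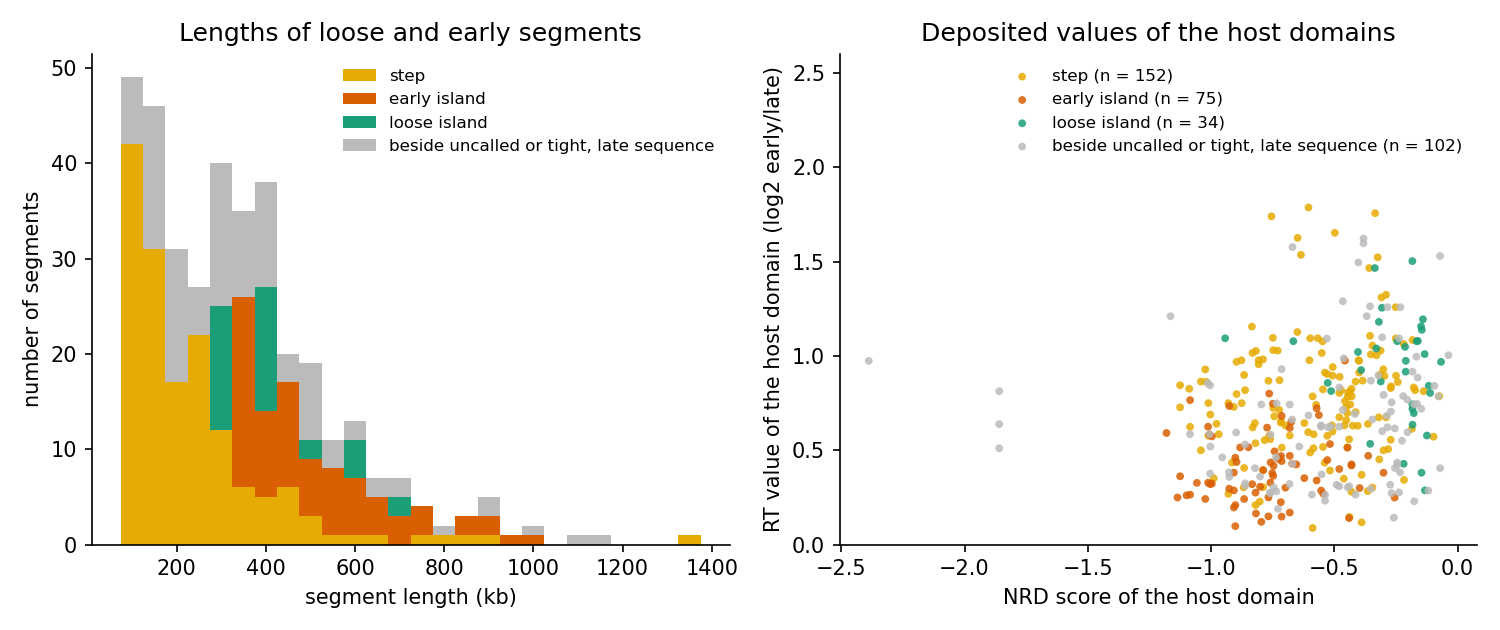
Left, lengths of the 363 segments in steps of 50 kb, stacked by what lies beside them; right, the NRD score (no unit) and the RT value (log2) of the domains that hold each segment, 1 point a segment. Short segments are mostly steps, early islands start at 350 kb and have low RT values (median 0.38), and loose islands have scores close to 0 (median −0.20).

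The values of the host domains differed between these groups. For early islands the host domains had a median score of −0.76 and a median RT value of 0.38, both the lowest of the groups. Loose islands had a median score of −0.20 and a median RT value of 0.97. Steps lay between, with a median score of −0.54 and a median RT value of 0.77. All 3 groups were picked by these same calls, and the plot of host domain values shows them side by side.

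By base composition the segments were closer to loose and late than to tight and early sequence. Their A/T content was 60.0%, compared with 61.5% in loose and late, 56.9% in tight and late and 54.5% in tight and early sequence. Over autosomes it was 59.9% ± 0.424 (SD, n = 19), lowest on chromosome 14 (58.8%) and highest on chromosome 3 (60.5%). It was above that of tight and early sequence on 19 of 19 autosomes (difference 5.28 ± 0.967 percentage points, smallest 3.10) and below that of loose and late sequence on 19 of 19 (difference −1.53 ± 0.518, nearest to 0 −0.71). The ranges of the segments and of loose and late sequence (60.8 to 61.9%) did not overlap. Outside repeats the A/T content was 59.3% in the segments, 53.4% in tight and early and 61.1% in loose and late sequence. Interspersed repeats and low complexity sequence took 37.4% of the bases of the segments, close to the 38.7% of loose and late and above the 28.6% of tight and early sequence. The repeat share was higher in the segments than in tight and early sequence on 19 autosomes, and higher than in loose and late sequence on 7 and lower on 12. The ratio of observed to expected CpG pairs was 0.18 in the segments, below the 0.22 of tight and early and above the 0.15 of loose and late sequence, each on 19 of 19 autosomes. MNase cuts A/T-rich DNA more readily, a preference that the paper examined for TiNRDs and LoNRDs as a whole. The part of this preference in the loose call of A/T-rich sequence was not tested here.

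Single segments varied little around this level. Their A/T content had a median of 59.7% with quartiles of 59.2 and 60.4%. Of the 363, 33 were above the pooled value of loose and late sequence and 3 were below that of tight and early sequence. Those 3, named after their values were seen, were chr4:42650001-42900000 (53.2%), chr14:69300001-69600000 (53.5%) and chr14:25900001-26300000 (53.7%). They hold tandem copies of closely related genes, among them Ccl21a and Ccl27b (chemokines) on chromosome 4, Entpd4 and Entpd4b on chromosome 14, and Duxbl1 and Duxbl3 (homeobox genes) further up the same chromosome. The first also had the most negative score of any segment, −2.39. It was followed by 3 segments of chromosome 2 between 175000001 and 177100000, which share 1 LoNRD with a score of −1.86 and hold zinc finger genes such as Zfp966, Zfp969 and Zfp973. In such near-identical copies few reads map to a single place, and how many did so was not tested.

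Genes were denser than in loose and late sequence and sparser than in tight and early sequence. The segments held the starts of 1084 protein-coding genes, 8.78 per Mb of assembled sequence, against 2.98 in loose and late, 5.27 in tight and late and 15.8 in tight and early sequence. Over autosomes the density was 8.80 ± 2.66 per Mb (SD, n = 19), from 3.50 on chromosome 15 to 13.8 on chromosome 13. It exceeded that of loose and late sequence on 19 of 19 autosomes and that of tight and late sequence on 17, and was below that of tight and early sequence on 18, with chromosome 13 as the exception. Protein-coding genes covered 46.5% of the segments, 56.4% of tight and early and 26.6% of loose and late sequence. Of the segments, 82 (22.6%) held no start of a protein-coding gene and 80 held 1, and the richest held 31. Pseudogenes were denser than in any other kind of sequence, at 6.36 per Mb against 5.14 in tight and early and 3.99 in loose and late sequence, whereas long noncoding RNA genes stood at 2.99 per Mb, against 6.31 and 1.67.

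A CpG-rich promoter was defined as the 300 bases from 250 before to 50 after the gene start with at least 50% G/C and a ratio of observed to expected CpG of at least 0.6. Such promoters are typical of genes that are active in most cell types. Of the genes starting in segments, 436 of 1084 (40.2%, 95% Wilson interval 37.3 to 43.2%) had one, compared with 50.3% in tight and early, 25.6% in tight and late and 16.3% in loose and late sequence. The share was above that of loose and late sequence on 19 of 19 autosomes. Against tight and late sequence it was higher on 12 autosomes and lower on 7 (difference 12.3 ± 24.4 percentage points). Compared with tight and early sequence it was higher on 5 autosomes and lower on 14, and it ranged from 18.2% on chromosome 17 to 72.3% on chromosome 11. Olfactory and vomeronasal receptor genes, which form large tandem clusters, made up 11.99% of the genes of the segments and 32.3% of those in loose and late sequence. Without them the shares with a CpG-rich promoter were 45.6% in segments, 51.0% in tight and early and 24.1% in loose and late sequence.

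**Figure D2:**
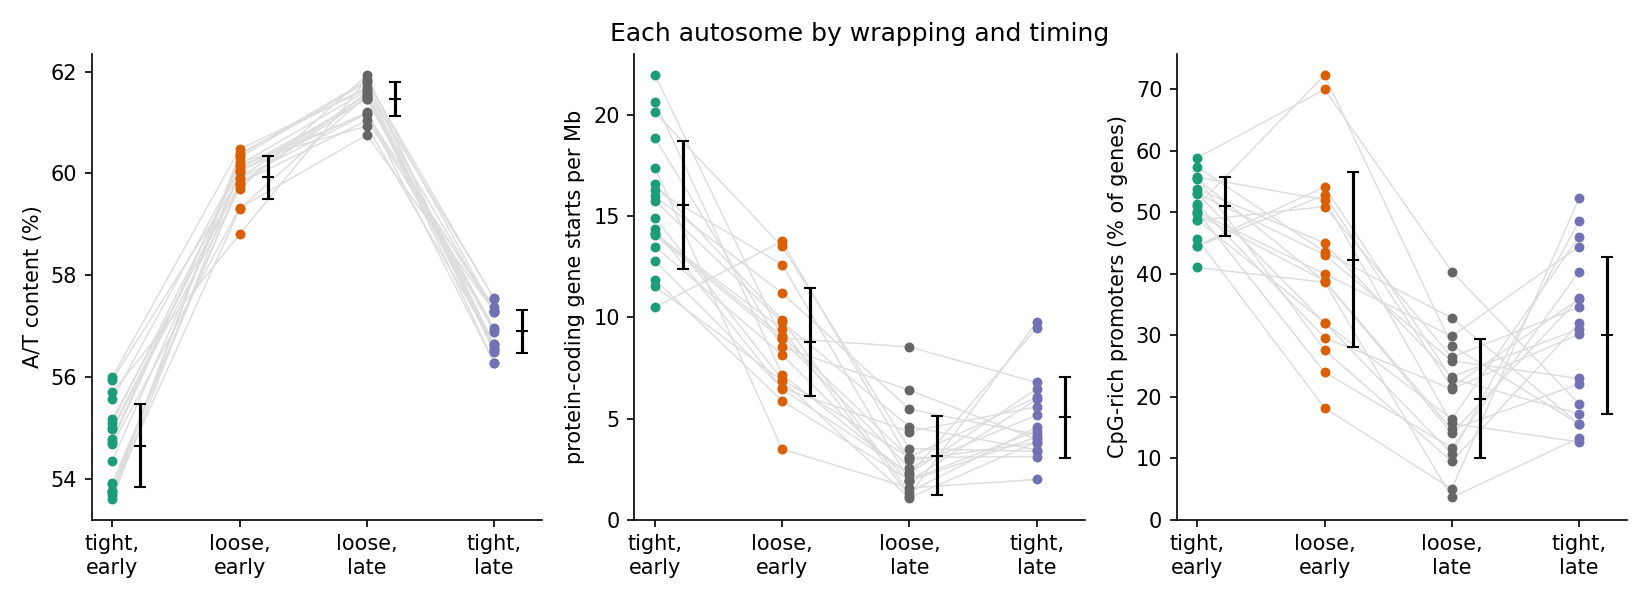
A/T content, protein-coding gene starts per Mb and the share of genes with a CpG-rich promoter in the 4 kinds of sequence, 1 point for each of the 19 autosomes joined by grey lines, with the mean and SD in black; the axis of A/T content does not start at 0. The segments (orange) lie near loose and late sequence in A/T content (59.9% against 61.5%) and between tight and early and loose and late sequence in mean gene density and promoter share.

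Since gene density falls with A/T content, it was compared among windows of 50 kb with the same base composition. The windows called in both lists were divided into 20 groups of equal size by A/T content. In each of the 14 groups with at least 20 loose and early and 20 loose and late windows, the loose and early windows had more gene starts per Mb. Against tight and early windows they were higher in 7 and lower in 6 of 13 groups. Counted from the lowest A/T content, they were higher in groups 7 to 10 and 16 to 18 and lower in groups 11 to 15 and 19. Group 12, with the most loose and early windows (329), had 7.66 gene starts per Mb in them against 11.5 in tight and early windows. With the groups weighted as the 2543 loose and early windows fall among them, the density was 8.73 per Mb for loose and early, 9.59 for tight and early, 7.95 for tight and late and 3.75 for loose and late windows. Before weighting, tight and early windows stood at 15.8 per Mb. Windows of 1 segment are not independent, and no test was made.

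**Figure D3:**
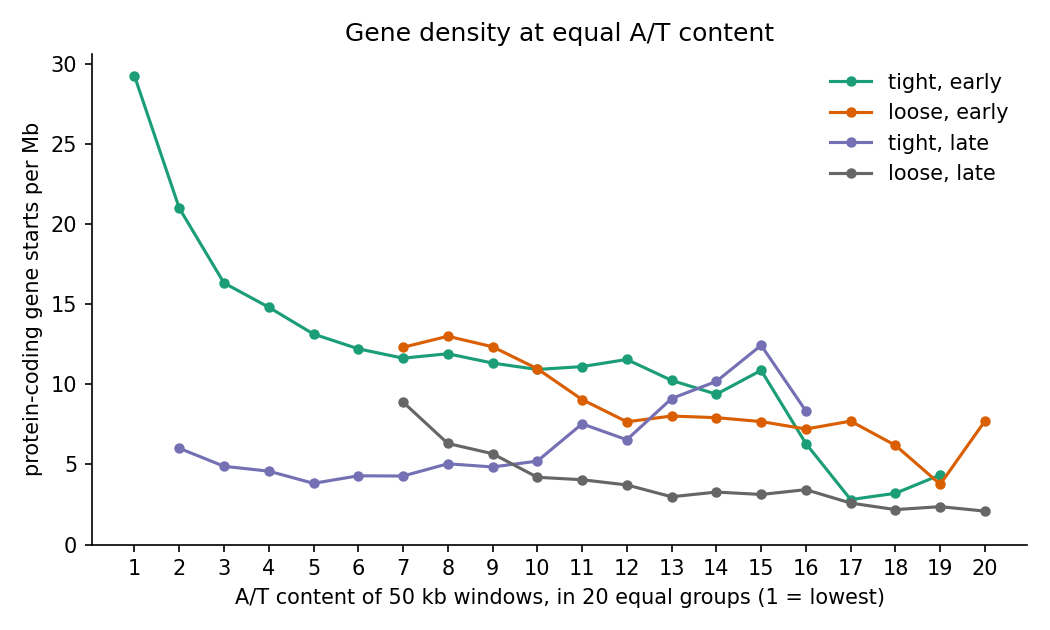
Protein-coding gene starts per Mb in windows of 50 kb, divided by A/T content into 20 groups of equal size (1 has the lowest A/T content), for the 4 combinations of calls; groups with under 20 windows are not drawn. Loose and early windows (orange) run above loose and late windows (grey) in all 14 groups drawn for both, and cross the line of tight and early windows (green), above it in 7 of 13 groups.

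Steps were examined together with the 200 kb next to them. A flank is named by the call at the base next to the segment. Where that call ends within 200 kb, the flank also holds sequence of another call or of none. The same holds for the flanks of islands. The A/T content of a step was higher than that of its tight and early flank in 142 of 152 cases (median difference 1.92 percentage points, quartiles 1.03 and 3.01). It was lower than that of its loose and late flank in 121 of 152 (median difference −0.87, quartiles −1.58 and −0.11). In 112 steps (73.7%) it lay between the values of both flanks. Gene starts numbered 11.9 per Mb in the tight and early flanks, 8.98 in the steps and 5.33 in the loose and late flanks. Mean A/T content rose along this path, from 56.5% at 225 kb outside the tight and early end through 59.0% just inside that end and 60.0% just inside the other end to 60.6% at 175 kb beyond it.

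In A/T content, early islands differed less from their surroundings than steps did. They were less A/T rich than the flank at 99 of 150 flanks (median difference −0.50 percentage points, quartiles −1.36 and 0.35), and 38 of the 75 islands (50.7%) were below both flanks. They held 6.95 gene starts per Mb against 4.68 in the flanks, and 38.6% of their 267 genes had a CpG-rich promoter. Protein-coding genes covered 38.0% of their length.

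Loose islands stood out against their surroundings by A/T content. It was higher in the island at 64 of 68 flanks (median difference 2.51 percentage points), and 32 of the 34 islands (94.1%) were above both flanks. In gene density they differed little from the flanks, with 11.6 per Mb against 12.9. Protein-coding genes covered 70.1% of their length, more than in tight and early sequence as a whole (56.4%). Of their 161 genes, 52.2% had a CpG-rich promoter (95% Wilson interval 44.5 to 59.7%).

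**Figure D4:**
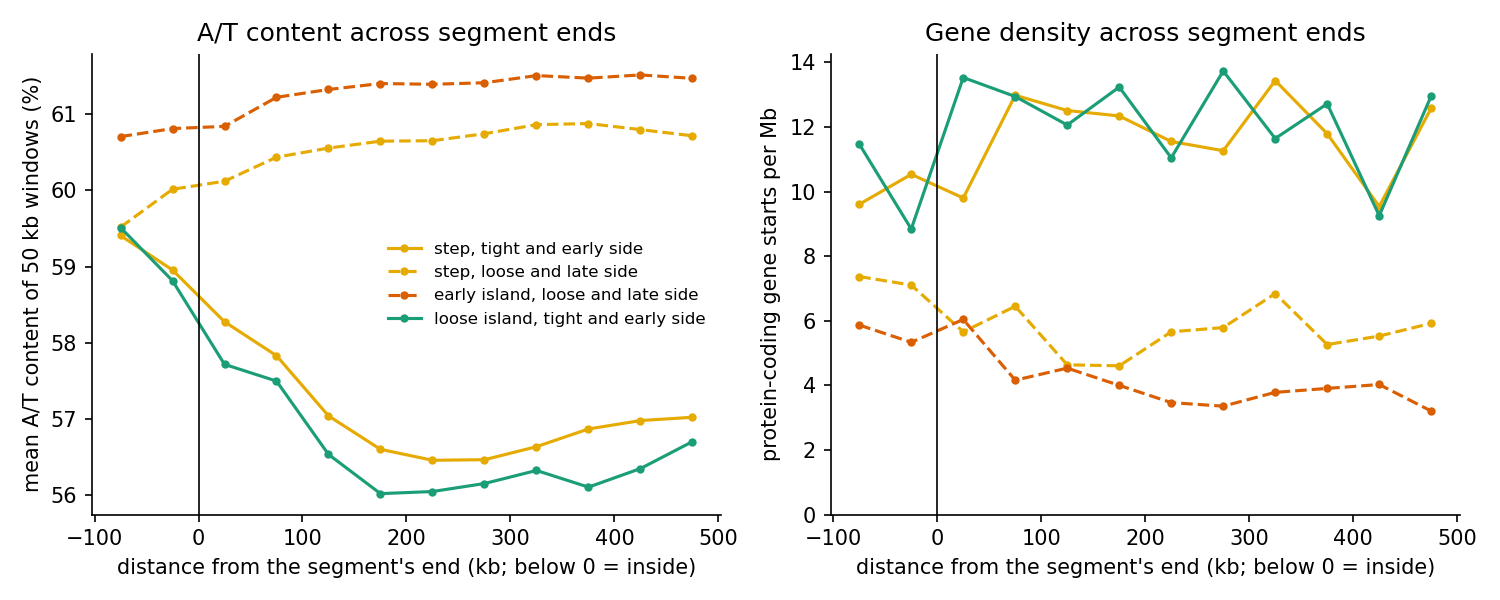
Mean A/T content (left) and protein-coding gene starts per Mb (right) in windows of 50 kb from 100 kb inside to 500 kb outside the ends of segments, by the group of the segment and the call outside the end (152 ends for each side of steps, 150 for early islands, 68 for loose islands). A/T content falls by over 2 percentage points towards tight and early sequence, with a low point about 200 kb outside. Towards loose and late sequence it rises less, from 59.5 to 60.9% at steps and from 60.7 to 61.5% at early islands. Windows further out can have a call other than that at the end.

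The 12 longest segments show the range of what these stretches contain. The longest, chr1:59700001-61050000 (1350 kb, score −0.30, RT value 0.89), is a step with an A/T content of 59.7%, between a flank of 56.4% on the tight and early side and one of 59.0% on the loose and late side, which it exceeded. It holds 12 gene starts, and its largest genes include Bmpr2, a receptor for bone morphogenetic proteins, Nbeal1, Raph1, which acts in actin-based protrusions, Abi2, part of the WAVE complex that drives actin assembly, Fam117b and Ica1l. The promoters of these 6 genes were all CpG-rich. The second, on chromosome 9 (1150 kb, score −0.68, RT value 0.32), starts beside uncalled sequence near the end of the chromosome, and 56.6% of it is repeats. It holds 6 genes, among them Gucy1a2, a subunit of soluble guanylate cyclase, and Alkbh8, a tRNA modifying enzyme. The third, on chromosome 1 (1100 kb, score −0.18, RT value 0.23), holds 12 gene starts, among them Dnah7a, a dynein heavy chain, the mismatch repair gene Pms1 and the kinase gene Stk17b.

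Among the others were 5 early islands, and these differed widely in genes. On chr17:16900001-17900000 (score −0.75, RT value 0.75) lay 11 gene starts, with the aminopeptidase gene Lnpep, the vomeronasal receptor gene Vmn2r90 and the zinc finger genes Zfp960 and Zfp97. On chr17:40350001-41250000 (score −0.82, RT value 0.16) lay 13, with Crisp2, a gene of sperm, Rhag, a gene of red blood cells, Mut, the mitochondrial methylmalonyl-CoA mutase, and Cenpq, a kinetochore protein, and both flanks were more A/T rich (63.1 and 62.3%) than the island (61.5%). The island chr2:65200001-66100000 (score −0.75, RT value 0.38) held the sodium channel genes Scn2a and Scn3a beside Csrnp3, and its A/T content of 59.9% was within 0.3 points of both flanks (59.8 and 59.7%). The island chr1:4450001-5300000 (score −0.57, RT value 0.72) held 7 gene starts, among them Sox17, Lypla1, the elongation factor gene Tcea1, Rgs20 and Mrpl15, and had the lowest A/T content of the 12 (59.0%, flanks 61.4 and 61.0%). By contrast, chr1:10750001-11700000 (score −0.53, RT value 0.45) held 2 gene starts, of Prex2 and A830018L16Rik.

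The rest of the 12 also ranged from gene poor to gene rich. The segment chr6:148600001-149600000 (score −0.46, RT value 0.99) held 9 gene starts, with Bicd1, Dennd5b, the importin gene Ipo8, Caprin2 and Resf1. The segment chr11:30300001-31200000 (score −0.47, RT value 0.71) held 8, with Asb3, Acyp2 and Psme4, an activator of the proteasome. The segment chr3:7400001-8300000 (score −0.76, RT value 0.28) held 2, Zc2hc1a and the cytokine gene Il7. The step chr11:12200001-13100000 (score −0.76, RT value 0.56) held 1, Cobl, an actin nucleator.

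Of 20807 autosomal protein-coding genes, 5.21% had their start in a segment, 69.7% in tight and early and 13.5% in loose and late sequence. The counts of gene groups below are read against that 5.21%. They are counts without a test, since genes of a group often lie side by side in the same segment.

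Of 30 core pluripotency genes, 27 started in tight and early sequence and 3 in segments (10.0%, 95% Wilson interval 3.46 to 25.6%), and none of them elsewhere. The 3 lay in 2 early islands. Dppa2 and Dppa4, neighbouring genes for DNA-binding proteins of early embryos and ES cells, start in chr16:48100001-48850000 (750 kb, score −0.56, RT value 0.69, 7 gene starts, A/T content 59.0%). Zfp42, which encodes the ES cell marker Rex1, starts in chr8:42950001-43600000 (650 kb, score −0.76, RT value 0.80, 5 gene starts, A/T content 59.8%). The RT values of both islands were above the upper quartile of early islands, 0.50. None of the 3 promoters met the definition of CpG-rich, with ratios of observed to expected CpG of 0.19 for Dppa2, 0.33 for Dppa4 and 0.47 for Zfp42.

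Among 56 genes of DNA replication, 46 started in tight and early sequence and 5 (8.93%, 95% Wilson interval 3.87 to 19.3%) in segments. Both intervals contain the share of all genes. Orc1, the largest subunit of the origin recognition complex, starts in a loose island on chromosome 4 (400 kb, score −0.24, RT value 1.08). Orc5, another subunit, starts in a step on chromosome 5 (250 kb, score −0.22, RT value 0.34), which holds 78.9% of the gene. Mcm4, a subunit of the replicative helicase, starts in a segment of chromosome 16 (500 kb, score −0.23, RT value 1.26), which also holds the DNA repair kinase gene Prkdc. Dbf4, which activates the kinase Cdc7, and Rfc3, a subunit of the clamp loader, start in segments of chromosome 5 (500 kb each, scores −0.20 and −0.23, RT values 0.60 and 0.55). All 5 scores were closer to 0 than the median of the segments, and all 5 promoters were CpG-rich.

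The 250 bases upstream of the RefSeq gene start, on the strand of the gene, show CpG pairs in the bases. In RefSeq (GRCm38.p6) 5 of these 8 genes were matched, and 3 are printed, with CpG pairs in capitals. For Orc1, Orc5, Rfc3 and Zfp42 this start differs from the GENCODE start used for the CpG-rich definition. Zfp42 has 9 CpG pairs, Rfc3 15, Orc5 19, Orc1 22 and Dbf4 38, with a G/C content of 58.4, 52.4, 63.6, 58.0 and 77.6%. Printed are the pluripotency gene and the replication genes with the most pairs.
Zfp42, chr8:43307010-43307259, minus strand: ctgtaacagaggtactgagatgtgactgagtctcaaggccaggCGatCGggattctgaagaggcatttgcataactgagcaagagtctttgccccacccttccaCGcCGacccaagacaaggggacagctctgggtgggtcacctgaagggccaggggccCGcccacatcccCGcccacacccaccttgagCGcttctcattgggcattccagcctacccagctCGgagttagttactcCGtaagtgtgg
Orc1, chr4:108579204-108579453, plus strand: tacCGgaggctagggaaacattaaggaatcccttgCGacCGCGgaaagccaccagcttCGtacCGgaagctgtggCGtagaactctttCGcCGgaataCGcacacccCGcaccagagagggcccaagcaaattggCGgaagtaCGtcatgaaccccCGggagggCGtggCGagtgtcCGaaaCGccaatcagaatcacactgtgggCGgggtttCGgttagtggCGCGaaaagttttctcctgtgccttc
Dbf4, chr5:8422717-8422966, minus strand: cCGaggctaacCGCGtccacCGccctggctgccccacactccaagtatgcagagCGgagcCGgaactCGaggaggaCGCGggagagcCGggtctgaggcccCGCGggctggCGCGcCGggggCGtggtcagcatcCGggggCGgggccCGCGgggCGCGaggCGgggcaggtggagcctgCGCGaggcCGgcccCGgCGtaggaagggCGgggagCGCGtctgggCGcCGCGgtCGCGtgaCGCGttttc

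Zinc finger genes of the Zfp series had 42 of 385 members (10.9%) in segments. Of the 42, 30 lay in loose islands, as did 161 of the 1084 genes of all segments. A single loose island, chr13:67000001-67700000 (score −0.21, RT value 0.97), held 19 of them among its 26 gene starts, and chr17:21400001-21900000 (score −0.35, RT value 0.53) held 9 among 10. Many genes of this series encode repressors with a KRAB domain and lie in tandem clusters. The longest of the 42 were Zfp280d, Zfp654 and Zfp973, with lengths of 88.9, 71.3 and 48.6 kb.

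Chemoreceptor genes, which are active in sensory neurons of the nose, had 101 of 1128 olfactory members (8.95%) and 29 of 327 vomeronasal members (8.87%) in segments. Most members of both families were in loose and late sequence, 65.4% and 52.3%. The 101 olfactory receptor genes lay in 15 segments, and 42 of them in 2 early islands of chromosome 2. These were chr2:86150001-86500000 with 22 (RT value 0.10) and chr2:87300001-87750000 with 20 (RT value 0.46), both in a LoNRD with a score of −0.90. Of the rest, 49 lay in steps, such as 13 in chr17:37200001-37400000 (RT value 1.03). None lay in a loose island. Of the 1084 genes of all segments, 324 lay in steps and 161 in loose islands. The highest values of host RT domains, between 1.65 and 1.79, were those of the domains that hold 4 steps of 100 or 150 kb. Each of these steps lay at an edge of its RT domain and held chemoreceptor genes, among them Olfr769, Vmn1r91, Olfr18 and Vmn2r114.

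The histone genes, a group looked at after the segments' genes were seen, had 32 of 67 members in segments, all of them in 2 segments of chromosome 13. These genes encode the histones made during S phase and have near-identical copies. The segment chr13:23100001-23700000 held 20 histone genes among 31 gene starts, the most of any segment, and chr13:21650001-21800000 held 12 among 15. Their scores of −0.09 and −0.16 were among the weakest of the segments, with RT values of 0.84 and 0.89, and 24 of the other histone genes were in tight and early sequence.

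Groups of developmental and neuronal genes were counted in the same way, and counts this small leave wide intervals. Of 189 genes of developmental transcription factor families, 4 started in segments (2.12%) and 149 in tight and early sequence. The 4 were Sox17, a factor of endoderm, Neurod4 and Pou3f2, factors of neurons, and Foxb2. The counts were 2 of 70 secreted signals (2.86%: Bmp5 and Fgf20), 4 of 159 ion channels (2.52%: Kcnj3, Scn2a, Scn3a and Clcn3), 4 of 92 transmitter receptors (4.35%, among them Htr1f, Gria2 and Glrb) and 2 of 165 genes of adhesion and axon guidance (1.21%: Sema3e and Epha4). Of these 12, 7 lay in early islands, as did 267 of the 1084 genes of all segments. Gria2 and Glrb, subunits of a glutamate and of the glycine receptor, started in the same island, and so did Scn2a and Scn3a. Glrb, Scn2a and Scn3a lay whole in their islands, but only 2.34% of the length of Gria2 did. Bmp5 and Epha4 had 19.7 and 10.2% of their length in the segment that held their start. The 95% Wilson intervals of the secreted signals (0.787 to 9.83%), channels (0.983 to 6.29%), transmitter receptors (1.70 to 10.7%) and transcription factors (0.826 to 5.31%) contained the 5.21% of all genes. That of adhesion and guidance genes did not (0.333 to 4.31%). These intervals count each gene as independent, though genes of a family can lie side by side, so they set no group apart. The share of ribosomal protein genes, 4 of 79 (5.06%: Rpl5, Rps3a1, Rpl35 and Rps27a), was near that of all genes.

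**Figure D5:**
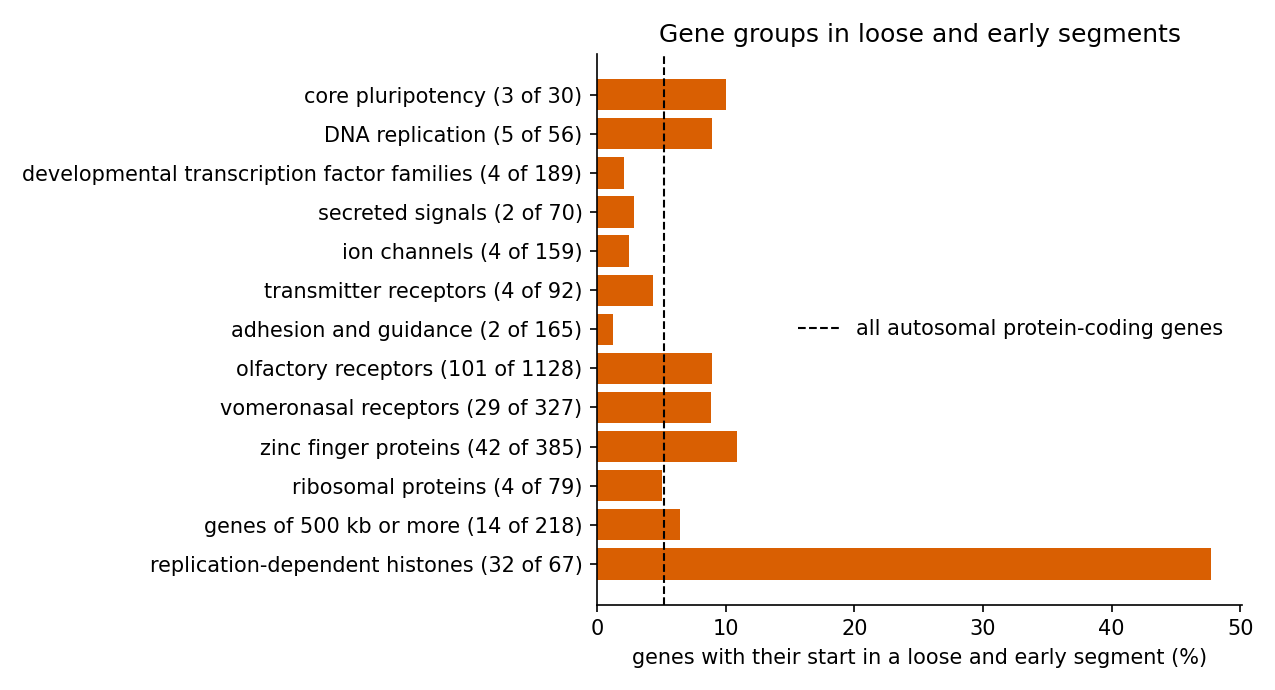
Share of the autosomal genes of each group that start in a loose and early segment, in percent, with the count beside the name; the dashed line is the 5.21% of all autosomal protein-coding genes. Zinc finger and chemoreceptor genes lie above the line, and the groups of developmental and neuronal genes lie below it. The small counts of pluripotency and replication genes have intervals that contain it. The histone group was chosen after its position was seen.

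Genes of at least 500 kb were mostly in loose and late sequence (115 of 218), and 14 (6.42%) started in segments. The 8 longest had between 3.33 and 51.1% of their length in the segment that held their start. Dlg2, a scaffold of synapses, spans 1973 kb, and 13.9% of it lay in the step that held its start. Pde4d, a phosphodiesterase gene of 1504 kb, had 3.33% in a step of 100 kb, and Immp2l (931 kb) had 18.9% in its segment. Zbtb20 (767 kb), a gene for a transcriptional repressor, and Sugct (838 kb) started in early islands, with 9.67 and 11.4% of their length inside. The shares were higher for Rabgap1l (24.9%), A830018L16Rik (50.9%) and 5730522E02Rik (51.1%).

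Most genes did not leave their segment. Of the 1084 genes with a start in a segment, 944 (87.1%) lay whole in it, and genes of the segments had a median length of 24.5 kb, against 18.015 kb in tight and early and 11.9 kb in loose and late sequence. The longest genes lying whole in 1 segment were Rims2, a gene of synaptic vesicle release (486 kb, in a loose island), Oxr1 (414 kb, in an early island), Gucy1a2 (362 kb) and Stag1, a subunit of cohesin (362 kb, in a loose island). They were followed by Hs3st5 (328 kb), Prex2 (310 kb), Dnah7a (310 kb) and Faf1 (287 kb). Of these 8 genes, 3 filled much of a loose island, with RT values of 0.86 for Rims2, 0.81 for Stag1 and 1.08 for Faf1.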

How the data were processed

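H3-wrapping-seq and RT-seq of R1 mouse ES cells gave 2 domain lists. For both, the authors trimmed reads with cutadapt 4.3, aligned them to mm10 with Bowtie2 2.5.1 (versions from the submitters' processing notes), marked duplicates with picard and kept proper pairs of sufficient mapping quality. For the NRD list the authors compared fragments above and below 140 bp in bins of 100 kb, made a z-score of it, smoothed it over 10 bins and called domains with homer2. Its value is a score deposited by the authors. For the RT list the authors took the log2 ratio of fractions S1 and S2 to S3 and S4 in windows of 50 kb, with quantile normalization, and called domains with HOMER. Its value is a log2 value deposited by the authors. How bins were combined into the value of a domain is not given in the sources used here.

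Intersections, base composition and genes (GENCODE M21, GRCm38, by gene start) were computed with Python 3.11.15 and numpy 2.4.6 (scipy 1.17.1 for Wilson intervals, which cover counting error only). The length of the segments differed by 0 Mb from that given by bedtools 2.31.1, and the overlap code was tested on simulated lists. All domains lay inside their GRCm38 chromosome, and the RT list reached the final base of 18 of 19 autosomes. Contexts were read from the calls at the base next to each end, and flanks were 200 kb. Over 1% of 15 segments is unassembled; densities are per assembled Mb. The lists give no depth per domain (the study's read numbers per library are not used here), each list is 1 call, and no test was made. Named were the 12 longest segments with up to 6 genes, every pluripotency and replication gene in a segment, up to 8 of the longest genes of other groups, the 8 longest genes lying whole in a segment, and windows of the 3 longest segments. The windows of the longest segment are not printed, because 1 overlaps an annotated UTR. Members, gene groups and rules were chosen with earlier results of these data known. The alternatives were other minimum lengths, trimmed, long or strong domains, and other definitions of A/T content, genes and CpG-rich promoters. Other libraries of the study were not used here. A gene that the naming rule covers is not reported here.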

Additional observations from a re-analysis of the deposited data

How the results depend on the processing

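Of the results, only the differences in A/T content could change sign, and neither did. Of 69 alternative values of 11 results, 50 stayed within the spread set for them (1.5 times for number and length, 1 SD over the 19 autosomes for A/T content and gene density, the 95% Wilson interval for shares). The differences in A/T content from both neighbouring kinds, and gene density as a multiple of theirs, stayed within it throughout. That spread was wide for the multiples. The multiple of loose and late density (2.95) was 1.99 with genes of every biotype and 3.83 without chemoreceptor genes. The multiple of tight and early density (0.56) was 0.49 with whole gene bodies and 0.68 with genes of every biotype. The remaining 19 of the 69 values moved, and beyond the smaller number of domains that each alternative leaves, the cause was not tested. The number of segments fell from 363 to 229 with domains of at least 500 kb, to 210 with 100 kb taken off each domain end and to 215 without the weakest 25% of domains, and the length to 57.5 and 68.3 Mb under the last of these 2. The share of steps was 29.5% for segments of at least 200 kb, 49.4% with no minimum length, 58.5% with domains of at least 500 kb, 19.05% with ends trimmed and 56.7% without the weakest domains, and that of early islands 28.0% for at least 200 kb, 15.3, 35.7 and 13.95% in the last 3, so that with ends trimmed early islands outnumbered steps, the reverse of the order reported. Outside masked repeats the A/T content was 59.3%. With genes of every biotype the density was 22.2 per Mb. The share of CpG-rich promoters was 48.5% with ends trimmed, 27.7% with the stricter definition (at least 55% G/C and a ratio of 0.75) and 45.6% without chemoreceptor genes, an alternative chosen after seeing the data. No paired analysis of the lists was possible because each is a single call with no replicate column, and the study's timing tracks per experiment were not used. Smoothing over 10 bins of 100 kb limits the precision of borders, and all but the 5 segments of at least 1 Mb are shorter than that span.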
